A study of Mus musculus with 20 samples.

Results

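Of 20 mouse liver arrays, 3 that belong to the chlorpromazine experiment carried a high level of Lcn2, and they are set here against the 7 arrays of the same experiment that did not. The rule took the 10 arrays titled CPZ or CPZ vehicle and divided them at a deposited Lcn2 level of 9 on the log2 scale. Lcn2 encodes lipocalin 2, a secreted protein that binds bacterial iron carriers and that hepatocytes make in an acute phase. The 3 arrays were thus chosen by a measured value. The level was 10.13 on CPZ array 1, 10.41 on CPZ array 11 and 9.39 on PBS array 20. On the other 7 arrays it ran from 5.01 to 6.34 with a median of 5.78. The array just above the threshold had 9.39 and the array just below it 6.34, and no array of the experiment lay between them.

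All livers were from male C57BL/6 mice, 10 weeks old and 21 to 27 g in weight, that were gavaged for 25 days. In the CPZ group (5 arrays) the mice received chlorpromazine, an antipsychotic drug known to impair bile flow, at 10 mg/kg in PBS, and in its vehicle group (5 arrays) PBS alone. Another 5 arrays came from mice given 3.70 mg/kg ethinylestradiol (EE2), a synthetic estrogen, in sunflower oil, and 5 from mice given the oil alone. These 10 EE2 and oil arrays took no part in the rule. Each array carries its group and its labelled sample number as its name. Nothing in the labels says that the samples were separate mice, so p-values reflect only the spread between samples. The labels name no infection, injury or other treatment that sets the 3 high Lcn2 arrays apart.

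The acute phase response is the liver's reaction to infection, injury or inflammation elsewhere in the body. Cytokines, chiefly interleukin 6 and interleukin 1, act on hepatocytes through STAT3, NF-kB and C/EBP transcription factors, and the hepatocytes raise the secretion of positive acute phase proteins such as serum amyloid A, orosomucoid, haptoglobin and fibrinogen. Negative acute phase proteins, such as albumin and transthyretin, are made less. In mice serum amyloid A and serum amyloid P are the classic strong reactants, while C-reactive protein reacts little.

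Because the level of 1 gene chose the arrays, every difference between the high and low Lcn2 arrays is a description and has no p-value. It is given as the high minus low difference in log2 level, adjusted for treatment (CPZ or PBS), and a gene is called separated where all 3 high arrays lay on the same side of all 7 low arrays and this difference was at least 0.5. Among 16463 named genes other than Lcn2, 37 were separated with higher levels on the high Lcn2 arrays (0.225%) and 7 with lower levels (0.0425%). For Lcn2 the difference was 4.53 within CPZ and 3.71 within PBS. Over all genes the median difference was -3.0e-04, and from the 1st to the 99th percentile it ran from -0.28 to 0.39. Without the size limit, 231 of the 16463 genes had all 3 high arrays above the low ones and 140 had them below. Among this many genes some lie free of overlap by chance, and the number to expect was not computed. Lack of overlap in a single gene is therefore only a description. The 10 arrays had similar array medians (4.47 to 4.67 over all 20), and arrays of the same group correlated at 0.994 to 0.997 across genes.

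Among the separated genes the largest differences belonged to serum amyloid and orosomucoid genes, so the sequences just upstream of these genes are shown first. Each is the 250 bases before the RefSeq transcription start, on the gene's own strand, in assembly GRCm38.p6. Capitals mark a match to TTGCNCAA, a form of the C/EBP binding motif, searched on both strands; the motif was chosen after the values and the sequences had been seen. The Saa1 window lies at chr7:46742981-46743230 on the minus strand, Saa2 at chr7:46751583-46751832 on the plus strand, Orm2 at chr4:63362199-63362448 on the plus strand and Orm3 at chr4:63355908-63356157 on the plus strand.
Saa1: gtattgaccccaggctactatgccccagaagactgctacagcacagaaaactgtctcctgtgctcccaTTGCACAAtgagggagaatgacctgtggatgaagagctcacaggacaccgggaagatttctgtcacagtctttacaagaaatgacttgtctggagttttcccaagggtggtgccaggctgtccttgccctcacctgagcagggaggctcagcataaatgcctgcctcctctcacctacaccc
Saa2: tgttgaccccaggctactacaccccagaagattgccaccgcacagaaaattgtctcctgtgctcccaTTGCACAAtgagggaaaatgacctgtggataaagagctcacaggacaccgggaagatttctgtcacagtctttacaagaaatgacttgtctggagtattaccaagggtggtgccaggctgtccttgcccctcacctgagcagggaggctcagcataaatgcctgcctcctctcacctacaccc
Orm2: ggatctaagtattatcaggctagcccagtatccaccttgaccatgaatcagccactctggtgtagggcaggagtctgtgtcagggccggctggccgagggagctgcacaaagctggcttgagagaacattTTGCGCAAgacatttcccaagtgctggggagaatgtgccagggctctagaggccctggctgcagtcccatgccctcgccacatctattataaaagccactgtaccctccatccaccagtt
Orm3: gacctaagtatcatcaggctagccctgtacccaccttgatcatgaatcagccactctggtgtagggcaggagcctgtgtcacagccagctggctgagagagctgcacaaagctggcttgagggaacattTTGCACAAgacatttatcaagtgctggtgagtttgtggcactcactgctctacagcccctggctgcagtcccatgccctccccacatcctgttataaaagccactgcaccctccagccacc

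The capitals begin 182 bases before the start in Saa1, 183 in Saa2, 120 in Orm2 and 121 in Orm3. Saa1 and Saa2 face away from each other on chromosome 7, and their windows were 95.6% identical over 249 aligned positions. The Orm2 and Orm3 windows were 89.0% identical over 245 positions, while Saa1 and Orm2 shared 56.7% of 233. Of 32851 RefSeq promoter windows of this length 857 held TTGCNCAA (2.61%). Of the 37 higher genes 28 had a window in the table, and 5 of these held it, namely the 4 genes shown and Slpi. A gene counted if any of its windows held the motif, while the share over all windows counts each window, so the 2 are not alike. TTCNNNGAA, a STAT motif, was in 2306 of the windows (7.02%) and in 2 of the 28, Apcs and Steap4. A match is only a run of letters, and no binding was measured.

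Serum amyloid A proteins are small apolipoproteins that replace apolipoprotein A-I on high density lipoprotein in an acute phase. Saa2 (Entrez gene 20209) had 10.88 on CPZ array 1, 8.89 on CPZ array 11 and 10.36 on PBS array 20, against a lowest, median and highest value of 5.46, 6.65 and 7.09 on the low Lcn2 arrays. All 3 high arrays lay above every low array, with CPZ array 11 the lowest of them, and the difference of 3.61 was the largest of any gene but Lcn2, separated or not. Saa1 (Entrez gene 20208) had 12.68, 12.04 and 12.72 on CPZ arrays 1 and 11 and PBS array 20, against 8.27, 10.03 and 10.61 at the lowest, median and highest low array. The groups again did not overlap, PBS array 20 was highest, and the difference was 2.81. Means were 12.5 ± 0.385 on the high arrays (SD, n = 3) and 9.86 ± 0.776 on the low arrays (SD, n = 7) for Saa1, and 10.0 ± 1.03 against 6.58 ± 0.539 for Saa2. CPZ array 3 was the lowest of the 10 arrays for Lcn2, Saa1 and Saa2 alike.

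Of the other family members, Saa3, which in mice is made by macrophages and fat cells as well as liver, overlapped between the groups. Its levels were 7.48, 8.35 and 7.47 on CPZ arrays 1 and 11 and PBS array 20, against 6.62 to 7.82 on the low arrays, with a difference of 0.68. Saa4, the constitutively made member, had a difference of 0.27 and also overlapped. Saa1 and Saa2 are near-identical genes, so signal from 1 of them may reach the probes of the other.

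Orosomucoids, also called alpha-1-acid glycoproteins, are secreted drug-binding plasma proteins encoded by 3 neighbouring genes on chromosome 4. Orm2 (Entrez gene 18406) had 11.45 and 12.14 on CPZ arrays 1 and 11 and 10.49 on PBS array 20, against 7.57, 8.20 and 9.14 at the lowest, median and highest low array. Its means were 11.4 ± 0.826 (SD, n = 3) and 8.35 ± 0.506 (SD, n = 7), and the adjusted difference was 2.88. Here CPZ array 11 was highest and PBS array 20 lowest of the 3, an order unlike that of Saa1. Orm3 (Entrez gene 18407) had 7.78 and 8.97 on CPZ arrays 1 and 11 and 7.29 on PBS array 20, against 3.61, 6.30 and 6.87. The low arrays were widely spread for this gene (SD 1.13, n = 7), and the difference was 1.84. Orm1 had no array overlap either, with 13.04 to 13.18 on the high arrays against 12.75 to 12.95 on the low arrays, but differed by only 0.24. The 3 genes are similar in sequence, so probes may share signal among them.

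**Figure D1:**
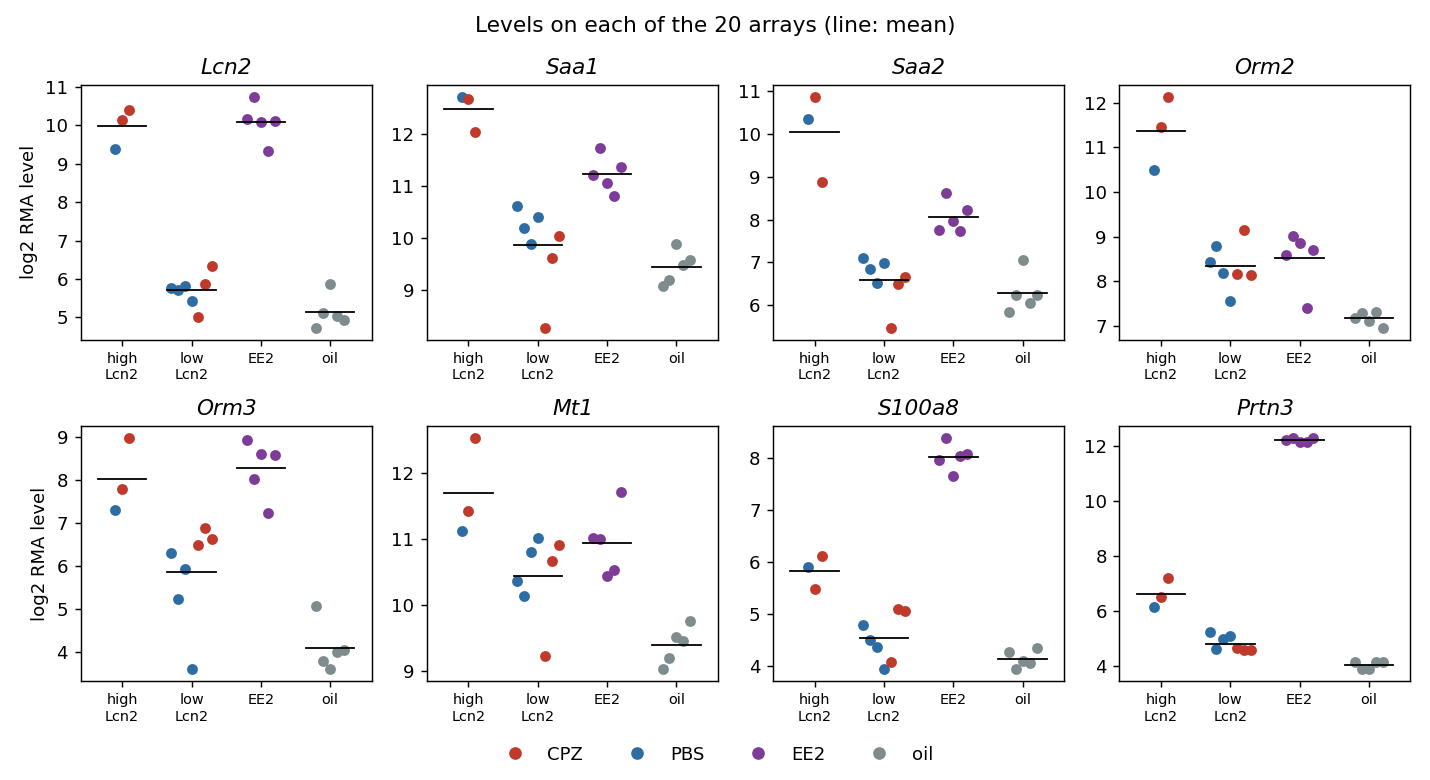
Log2 RMA level (y axis) of 8 genes on each of the 20 arrays, with the 3 high Lcn2 arrays of the chlorpromazine experiment, the 7 low Lcn2 arrays, the 5 EE2 arrays and the 5 oil arrays from left to right. Points are arrays coloured by treatment and lines are means. For Saa1, Saa2 and Orm2 the high Lcn2 arrays lie above all EE2 arrays, and for S100a8 and Prtn3 they lie below them.

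The list of serum amyloid, orosomucoid and haptoglobin genes had 13 measured members. Of these, 5 were separated (Saa1, Saa2, Orm2, Orm3 and Apcs), 9 had all high arrays above all low arrays, and the median difference was 0.27 against -3.0e-04 over all genes. Apcs encodes serum amyloid P, and had 12.13 on each of CPZ arrays 1 and 11 and 11.59 on PBS array 20, against 10.93, 11.31 and 11.52 on the low arrays, with a difference of 0.60. Haptoglobin (Hp), which captures free haemoglobin, had 13.53, 13.42 and 13.40 against 13.06, 13.16 and 13.30, and hemopexin (Hpx), which captures haem, 13.53, 13.56 and 13.52 against 13.26, 13.35 and 13.44. Both sets of arrays were free of overlap, with differences of 0.24 and 0.20. These genes sit close to the top of the scale, whose highest value was 14.2, where array signals can be compressed. Crp, the gene of C-reactive protein, had a difference of 0.09 and overlapped, as did ceruloplasmin (Cp, 0.10), a copper-carrying ferroxidase.

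Among 26 measured genes of other positive acute phase proteins, 6 were separated, 10 had all high arrays above all low arrays, and the median difference was 0.23. The separated ones were Mt1, Tifa, Fgl1, Lrg1, Serpina3n and Steap4. Metallothionein 1 (Mt1), a zinc-binding protein, had 11.43 and 12.53 on CPZ arrays 1 and 11 and 11.12 on PBS array 20, against 9.23, 10.66 and 11.02. The gap between PBS array 20 and the highest low array was small, although the difference was 1.24. Its neighbour Mt2 differed by more (1.90) but overlapped, with 8.94 to 9.78 on the high arrays against 5.71 to 9.09 on the low arrays.

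Fgl1, a fibrinogen-like protein secreted by hepatocytes, had 12.47, 12.26 and 11.60 on CPZ arrays 1 and 11 and PBS array 20, against 10.93, 11.33 and 11.53, a difference of 0.79. Lrg1, a leucine-rich plasma glycoprotein of the acute phase, had 12.95, 12.66 and 12.46 against 11.76, 11.98 and 12.43, a difference of 0.62. For both genes PBS array 20 was the lowest of the 3 and lay just above the highest low array. Serpina3n, a secreted serine protease inhibitor, had 10.59, 10.16 and 10.25 against 9.52, 9.78 and 9.95 (difference 0.55). Steap4, a metalloreductase of iron and copper, had 9.25, 9.42 and 8.81 against 8.42, 8.58 and 8.72, with a difference of 0.53. Itih3 and Itih4, heavy chains of the inter-alpha-trypsin inhibitor that binds hyaluronan, were free of overlap but differed by 0.30 and 0.24.

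The 3 fibrinogen chain genes stood apart from the serum amyloids. Fga, Fgb and Fgg had differences of 0.14, 0.08 and 0.02, and only Fgb had no overlap between the arrays. Fgb and Fgg, like Hp and Hpx, sit close to the top of the scale, where array signals can be compressed. The endotoxin carrier gene Lbp (0.48) and the endotoxin co-receptor gene Cd14 (0.46) had larger differences but overlapped. Lbp had 7.00 and 6.77 on CPZ arrays 1 and 11, against 6.24 to 6.50 on the low CPZ arrays, and 6.38 on PBS array 20, against 5.82 to 6.00 on the low PBS arrays. Within each treatment Lbp thus did not overlap, and the overlap arose between treatments. Hepcidin (Hamp), the iron hormone that interleukin 6 can raise, went the other way at -0.32, with 12.48, 12.21 and 12.70 on CPZ arrays 1 and 11 and PBS array 20, against 12.49 to 13.10, and Hamp2 differed by -0.61. Both overlapped. In the list of 25 iron and haem genes Steap4 alone was separated, and the zinc and iron importer gene Slc39a14 differed by 0.22.

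No gene of the 19 measured negative acute phase proteins was separated, and their median difference was 0.01. Albumin (Alb) had 14.13 to 14.18 on the high Lcn2 arrays against 14.08 to 14.20 on the low arrays. Transthyretin (Ttr) had 13.71 to 13.73 against 13.69 to 13.80, and the retinol carrier gene Rbp4 13.53 to 13.62 against 13.57 to 13.67. The differences of these genes were 0.01, -0.03 and -0.04, and Apoa1, of apolipoprotein A-I, differed by -0.03. All of these genes sit close to the top of the scale, where array signals can be compressed. The list's mean level was 12.21 to 12.26 on the high arrays and 12.18 to 12.29 on the low arrays. It was 11.80 to 11.88 on EE2 arrays and 12.12 to 12.28 on oil arrays, so lower levels of this list could be registered. With EE2, 10 of the 19 genes fell and 2 rose, while 26.7% of all genes fell.

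As lists, the genes of cytokines, their receptors and the STAT3 pathway differed little. Some single genes named here and below lay near or above the 99th percentile of all genes, 0.39. Of 31 measured receptor and STAT3 pathway genes 0 were separated, with a median difference of 0.08, and of 18 cytokine genes 0 were separated, with a median of 0.05. Stat3 had 8.95 and 9.32 on CPZ arrays 1 and 11 and 9.45 on PBS array 20, against 8.70 to 9.16 (difference 0.36). Socs3, a STAT3 target that restrains the pathway, had a difference of 0.35 but was highest on low CPZ array 3 at 6.96. Il6ra, the interleukin 6 receptor, differed by -0.19, and its partner Il6st by 0.11. The oncostatin receptor gene Osmr differed by -0.01 and the interleukin 1 receptor gene Il1r1 by 0.27, and both overlapped. Cebpb and Cebpd, whose proteins bind C/EBP motifs, differed by 0.39 each and overlapped.

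Il6 itself had 2.74, 2.78 and 3.02 on CPZ arrays 1 and 11 and PBS array 20, against 2.51 to 2.60 on the low arrays. The 3 arrays were above the others, but every value lay under the lower quartile of all genes, 3.16, the low end of the scale. Tnf, at 3.08 to 3.18 against 3.00 to 3.42, lay close to it and overlapped. Il1b had 5.87, 6.89 and 6.33 against 4.50 to 6.33, a difference of 0.62, and the neutrophil attractant gene Cxcl1 7.48, 8.71 and 8.28 against 6.52 to 8.10, a difference of 0.91. Both overlapped.

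Among 27 NF-kB and endotoxin response genes Nfkbiz alone was separated, and the list's median difference was 0.11. Nfkbiz encodes an inducible nuclear IkB protein that Lcn2 transcription is known to need, and had 5.71, 6.47 and 6.07 on CPZ arrays 1 and 11 and PBS array 20, against 4.92, 5.26 and 5.48. Tifa, an adaptor that couples TRAF6 to NF-kB, had 8.17, 8.61 and 8.37 against 6.91, 7.55 and 7.94. The differences were 0.87 and 0.86, of like size in CPZ and PBS for each gene. The adhesion molecule gene Icam1 was free of overlap with a difference of 0.46, under the limit of 0.5. Tlr2, which senses bacterial lipoproteins, differed by 0.48 and overlapped, since CPZ array 1 (4.43) lay within the low arrays (4.32 to 4.60).

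Several separated genes are typical of white blood cells rather than of hepatocytes. S100a8 and S100a9 encode calprotectin, the abundant calcium-binding protein of neutrophils and monocytes. S100a8 had 5.48 and 6.12 on CPZ arrays 1 and 11 and 5.91 on PBS array 20, against 3.94, 4.50 and 5.11, and S100a9 had 6.15, 6.85 and 6.71 against 4.94, 5.29 and 5.95. Their differences were 1.23 and 1.13, and in contrast to most other genes both were larger in PBS than in CPZ. Prtn3, the neutrophil granule protease proteinase 3, had 6.54, 7.20 and 6.16 against 4.58, 4.65 and 5.25, a difference of 1.82. These 3 were the separated genes among 19 measured neutrophil markers, whose median difference was 0.10. The defining granule genes Mpo (3.36 to 3.39 against 3.30 to 3.66) and Ngp (3.21 to 3.61 against 2.99 to 3.44) overlapped near the lower quartile of all genes.

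The mean level of the neutrophil markers was 4.13 to 4.37 on the high Lcn2 arrays, against 3.85 to 4.00 on the low arrays. It was 4.88 to 5.19 on EE2 arrays and 3.75 to 3.97 on oil arrays. These means include Prtn3, S100a8 and S100a9, which separation selected, so the gap between high and low arrays rests partly on them. With EE2, 9 of the 19 markers rose and 0 fell, with a median difference of 0.33, while 19.2% of all genes rose. The gap between the EE2 and oil means also rests partly on Prtn3, S100a8 and S100a9, which rose by 8.16, 3.88 and 3.42. The granule gene Mpo averaged 3.28 with EE2 and 3.37 with oil, and Ngp 3.48 and 3.32. For 26 measured macrophage and Kupffer cell markers the mean level was 6.89 to 7.63 on the high arrays against 6.56 to 7.07 on the low arrays. None of the 26 was separated, but their median difference of 0.35 was the highest of the 32 lists. The Kupffer cell genes Clec4f and Vsig4 differed by 0.31 and 0.46, the phagocyte oxidase gene Cybb by 0.60, Cd68 by 0.49 and Adgre1 by 0.19, all with overlap. CPZ array 11 stood highest, at 0.61 above the mean of the low CPZ arrays for the macrophage list, while CPZ array 1 was 0.16 above it and PBS array 20 was 0.17 above the low PBS arrays. The part of these cells in the differences of other genes was not tested. In bulk tissue, more cells of a type and more RNA per cell cannot be told apart. The mean level of 15 hepatocyte markers was 12.41 to 12.44 on the high arrays against 12.39 to 12.46 on the low arrays.

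Other separated genes with roles in phagocytes and lymphocytes were smaller in difference. Fcgr3, a low-affinity receptor for IgG, had 6.03, 6.87 and 6.16 on CPZ arrays 1 and 11 and PBS array 20, against 5.31 to 5.96, and Plac8 had 7.80, 8.66 and 7.96 against 7.35 to 7.68. Adamdec1, a secreted metalloprotease of macrophages and dendritic cells, differed by 0.70, Treml4, a myeloid receptor, by 0.61, Tnfaip8l2, a restraint on innate immune signalling, by 0.52, and Lpxn, a leukocyte adhesion adaptor, by 0.50. For all of these but Lpxn CPZ array 11 was the highest array, as it was for the macrophage list. Slpi, a secreted inhibitor of neutrophil elastase, had 7.02, 7.40 and 6.76 against 6.29 to 6.69, a difference of 0.56.

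The interferon list had 0 separated genes of 30 measured, with a median difference of 0.26 and 5 genes free of overlap. Usp18, which removes the ubiquitin-like protein ISG15, was among these with a difference of 0.43. Outside this list the interferon-inducible genes Phf11d (0.73), Ifi204 (0.53) and Ifi27l2b (0.51) were separated. The list's mean was 0.44 above the low arrays of its treatment on CPZ array 11, 0.18 on CPZ array 1 and 0.11 on PBS array 20. Complement had 0 separated of 21 measured, with a median of 0.12 and C1qc at 0.40, and the 25 chemokine genes also 0, with Ccl6 at 0.72.

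**Figure D2:**
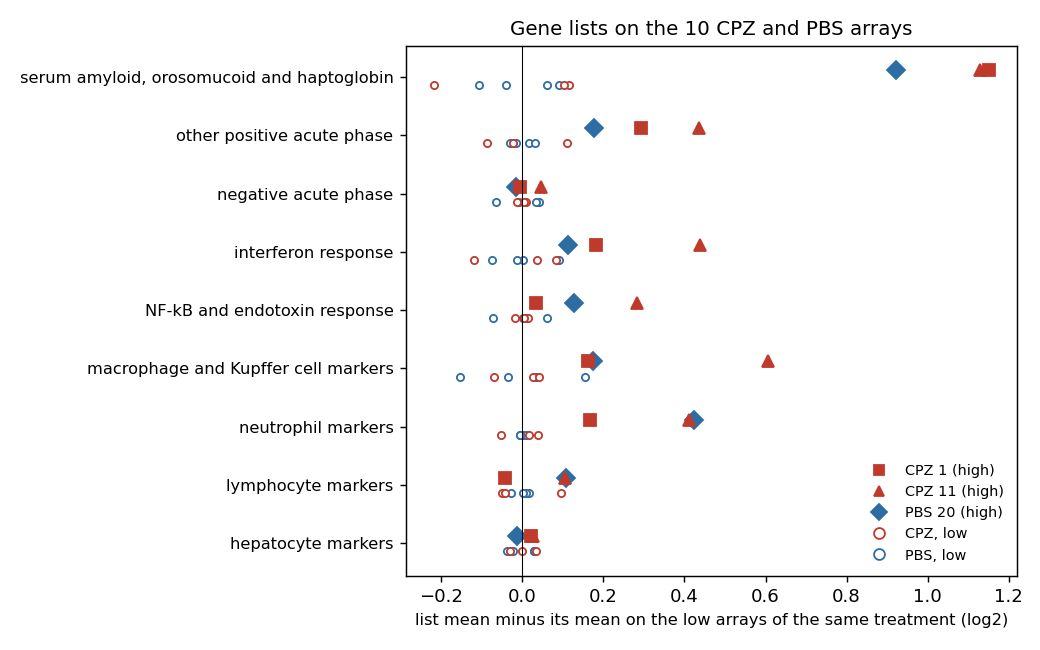
Mean log2 level of 9 gene lists on each of the 10 CPZ and PBS arrays, less the list's mean on the low Lcn2 arrays of the same treatment (x axis, log2). Filled symbols are the 3 high Lcn2 arrays and open circles the 7 low ones. The mean of the serum amyloid list lies 0.92 to 1.15 higher on the 3 high arrays. It includes 5 genes that separation selected on these arrays, and the median difference of its 13 genes was 0.27. The negative acute phase list lies within the low arrays or near them, and CPZ array 11 is farthest right for the macrophage and interferon lists.

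Other higher genes have varied roles, and of those that follow Chac1 alone belongs to a list. Scara5, a ferritin receptor, had 6.00, 6.34 and 6.18 on CPZ arrays 1 and 11 and PBS array 20, against 5.05 to 5.91. Prg4, a secreted lubricating proteoglycan also known as lubricin, had 9.62, 9.50 and 9.04 against 8.38 to 8.93. Slc41a2, a magnesium transporter, had 9.86, 9.99 and 9.83 against 8.93 to 9.80, and Dnajc12, a cochaperone of aromatic amino acid hydroxylases, had 8.28, 8.82 and 8.37 against 7.61 to 8.28. For the last pair the nearest arrays of the groups almost touched, and the differences were 0.55 and 0.53. Chac1, which degrades glutathione and is induced by amino acid stress, had 6.65, 6.07 and 6.49 against 4.94 to 5.99 and was the separated gene among 15 of the amino acid stress list. Cyb561 (0.85), an ascorbate-dependent cytochrome, Phlda2 (0.81), an imprinted gene, Armcx4 (0.71), the centromere gene Cenpm (0.66), Fndc3b (0.56), the connexin 37 gene Gja4 (0.55) and Emp3 (0.53) complete the 37. Phlda2, at 4.03 to 4.27 against 3.11 to 3.63, and Armcx4, at 3.99 to 5.29 against 3.38 to 3.90, were measured low on the scale.

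The 7 lower genes had differences between -0.90 and -0.51. Ces1e, a liver carboxylesterase, had 9.68 and 9.82 on CPZ arrays 1 and 11 and 10.00 on PBS array 20, against 10.21, 10.48 and 10.68 at the lowest, median and highest low array. Csad, the cysteine sulfinate decarboxylase that makes taurine, had 10.52, 10.40 and 10.52 against 10.76, 11.18 and 11.48. The differences were -0.64 and -0.61, and the high arrays lay close together for Csad (SD 0.0703, n = 3). G0s2, an inhibitor of the triglyceride lipase ATGL, had 8.31, 8.58 and 8.40 against 8.75, 8.89 and 9.67 (difference -0.57). Gsta2, a glutathione transferase, had 10.13, 10.25 and 10.44 against 10.55, 10.96 and 11.36 (difference -0.57). Lrit1 had 5.59, 5.78 and 6.14 against 6.18 to 6.53 (difference -0.51), a narrow gap at PBS array 20, and Zfp994 had 4.94, 4.47 and 4.77 against 5.05 to 5.51 (difference -0.53). Abcd2, a peroxisomal very long chain fatty acid transporter, had the lowest difference, -0.90, with 4.63 to 4.66 on the high arrays against 4.84, 5.42 and 6.99, so PBS array 19 alone held the highest value. It lay outside the rule for named genes, which asked for a mean of 6, and is given as a member.

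The other 26 lists of liver functions and cell types held no separated gene in either direction. Some genes had large differences with overlap. Moxd1, a monooxygenase-like protein, had 5.95, 8.16 and 6.84 on CPZ arrays 1 and 11 and PBS array 20, against 2.62, 3.08 and 6.40 at the lowest, median and highest low array. CPZ array 12 held that highest value, and it was also the low array with the highest Lcn2 level. The repressor gene Bcl6 differed by -1.39, with 5.02, 5.61 and 5.27 against 5.39, 6.78 and 7.34. The acyl-CoA thioesterase gene Acot1 differed by -1.01 and the fatty acid hydroxylase gene Cyp4a14 by -0.97, both targets of PPARalpha and both with overlap. Without PBS array 20 the Cyp4a14 difference was 0.12. The basolateral exporter gene Abcc3 (-0.39) and the fatty acid binding protein gene Fabp1 (-0.12) were free of overlap but under the limit.

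The 3 high Lcn2 arrays came from both treatments, 2 of 5 CPZ arrays and 1 of 5 PBS arrays, so each difference could be read within each treatment. Of the 37 higher genes 19 reached 0.5 in both treatments, and of the 7 lower genes 3 did. The difference was larger in CPZ for 32 of the 37. These counts were not made over all genes. Saa2 differed by 3.68 in CPZ and 3.50 in PBS, and Saa1 by 3.05 and 2.45. The larger value was in PBS for Orm3 (1.72 in CPZ and 2.02 in PBS), S100a8, S100a9, Tifa and Chac1. Of the 8 genes with a difference of at least 1, Mt1 was the most unequal, with 1.71 in CPZ and 0.54 in PBS. Among the 3 arrays CPZ array 11 was the highest for 25 of the 37 genes, CPZ array 1 for 11 and PBS array 20 for 1, Saa1. PBS array 20 was the lowest for 22. A value in PBS rests on 1 high array, so its spread cannot be given.

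**Figure D3:**
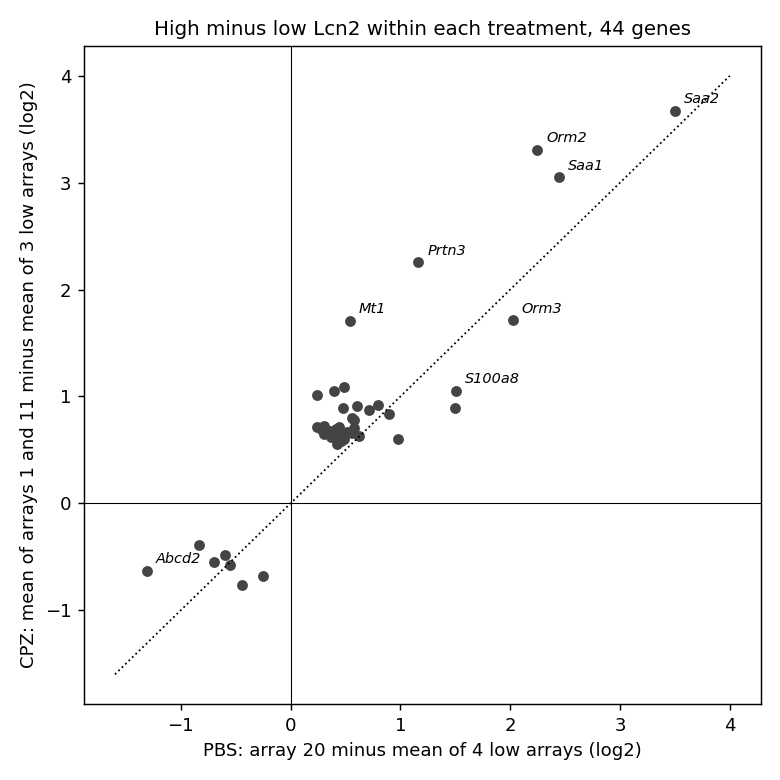
High minus low Lcn2 difference within CPZ (y axis, log2) against that within PBS (x axis, log2) for the 44 separated genes, 37 higher and 7 lower. Each point is a gene and the dotted line marks equal values. All points lie in the quadrants of equal sign because separation fixed the direction. Above the line lie 32 of the 37 higher genes, a share that was not computed over all genes.

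The labelled comparison these arrays were made for is CPZ against PBS, and it uses the same arrays. In the limma fit of 4 group means on all 20 arrays, 73 of 16464 genes rose with CPZ (0.443%) and 58 fell (0.352%) at an adjusted p under 0.05. None of the 37 higher or 7 lower genes was among them, while limma gave an unadjusted p under 0.05 to 8 of the 37 and 0 of the 7, against 2003 of all genes (12.2%). With 2 high arrays in CPZ and 1 in PBS, 35 of the 37 had a positive CPZ minus PBS difference, with a median of 0.27 against 0.01 over all genes. These values share arrays with the high and low groups and are no separate support. For Lcn2 the mean level was 7.55 with CPZ and 6.43 with PBS, a difference of 1.12 with an exact two-sided permutation p of 0.302. Orm2 averaged 9.81 with CPZ and 8.70 with PBS (difference 1.11, exact p = 0.254). The differences were -0.24 for Saa1 (exact p = 0.762) and 0.12 for Saa2 (exact p = 0.913). Their signs rested on single arrays, at 0.25 for Saa1 without PBS array 20 and -0.68 for Saa2 without CPZ array 1. The test has 252 assignments of 5 and 5 arrays, and the smallest p it can give is 0.0079.

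Cyp2b10, a cytochrome P450 induced through the receptor CAR, separated the arrays by drug, whichever their Lcn2 level. It had 8.07 and 8.42 on the high and 8.53 to 9.17 on the low CPZ arrays, and 4.17 on the high and 3.96 to 4.95 on the low PBS arrays. It rose by 4.07 with CPZ (limma, adjusted p = 9.18e-09), and the high minus low difference was -0.47 with overlap. When the Lcn2 class entered the limma fit as a covariate, 64 genes were called for CPZ against PBS, of which 52 were among the 131 of the fit without it. Without the 3 high Lcn2 arrays 104 were called, of which 59 were among the 131. A fit of the 10 CPZ and PBS arrays alone, with no covariate, also called 64, and 53 of them were shared.

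The EE2 and oil arrays took no part in choosing the genes, and they allow a test. EE2 is an estrogen known to cause cholestasis. Lcn2 had 10.16, 10.75, 10.07, 9.32 and 10.10 on EE2 arrays 9, 13, 15, 17 and 18, against 4.72, 5.11, 5.86, 5.03 and 4.93 on oil arrays 2, 5, 6, 8 and 16. Every EE2 array was above every oil array, and Lcn2 rose by 4.95 ± 0.872 (SE, limma, adjusted p = 9.57e-05). In this fit of all 20 arrays 3166 of 16464 genes rose with EE2 (19.2%) and 4394 fell (26.7%). Of the 37 higher genes 29 rose, 2 fell and 6 were not called, and their median EE2 minus oil difference was 1.34 against -0.07 over all genes. Of the 7 lower genes 4 fell (Ces1e, Lrit1, G0s2 and Gsta2) and 3 rose (Abcd2, Csad and Zfp994).

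The order of the genes by size was not the same in the EE2 arrays. Saa1 had 11.22, 11.74, 11.05, 10.80 and 11.36 on EE2 arrays 9, 13, 15, 17 and 18, against 9.08, 9.19, 9.88, 9.47 and 9.57 on oil arrays 2, 5, 6, 8 and 16. It rose by 1.80 ± 0.615 (SE, limma, adjusted p = 0.0217), and all 3 high Lcn2 arrays of the chlorpromazine experiment lay above all 5 EE2 arrays. Saa2 had 7.73 to 8.61 with EE2 against 5.85 to 7.04 with oil, a difference of 1.78 ± 0.776 (SE) that missed the threshold in limma (adjusted p = 0.0666). Orm2 had 8.60, 9.02, 8.86, 7.41 and 8.70 with EE2 against 6.96 to 7.32 with oil, a difference of 1.34 ± 0.639 (SE) that also missed it (limma, adjusted p = 0.0921). For both genes the EE2 and oil arrays did not overlap. The shared estimate of spread includes the CPZ and PBS arrays, where the SD of Saa2 was 2.18 and 1.58 (n = 5 each), against 0.368 with EE2 and 0.455 with oil. In a limma fit of the EE2 and oil arrays alone both genes were called, with adjusted p = 2.73e-05 for Saa2 and 6.83e-04 for Orm2. In that fit 33 of the 37 rose and 2 fell, against 3084 (18.7%) and 4268 (25.9%) of all genes.

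Orm3 rose by 4.16 ± 0.544 (SE, limma, adjusted p = 2.46e-06), with 7.23 to 8.92 on EE2 arrays against 3.60 to 5.06 on oil arrays. Mt1 rose by 1.54 (limma, adjusted p = 0.00314), S100a8 by 3.88 (limma, adjusted p = 2.09e-09) and S100a9 by 3.42 (limma, adjusted p = 1.02e-08). Prtn3 had 12.13 to 12.30 on the EE2 arrays against 3.90 to 4.15 on the oil arrays, and its rise of 8.16 ± 0.392 (SE, limma, adjusted p = 7.57e-13) was the largest among the 37. Ifi27l2b (4.22), Adamdec1 (3.44), Fcgr3 (2.48), Prg4 (2.44), Plac8 (2.06) and Ifi204 (2.00) also rose, each with a limma adjusted p under 0.05. The hepatocyte acute phase genes Fgl1 (1.30), Apcs (1.09), Lrg1 (0.96), Serpina3n (0.77) and Steap4 (0.67) rose as well. Macrophage markers moved with this result: 23 of 26 rose and 0 fell, with a mean level of 7.99 to 8.51 on EE2 arrays against 6.80 to 7.08 on oil arrays. Their part in the rises was not tested.

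Of the 37 higher genes, 2 fell with EE2 and 6 were not called. Slc41a2 had 6.36, 7.20, 7.58, 6.14 and 5.68 on EE2 arrays 9, 13, 15, 17 and 18, against 8.82 to 9.23 on oil arrays, and fell by 2.41 (limma, adjusted p = 4.54e-07). Dnajc12 fell by 0.45 (limma, adjusted p = 0.0309), a call lost without oil array 2 or 5 or EE2 array 15 or 18. Tifa had 6.85 to 7.29 with EE2 against 6.95 to 7.48 with oil, with a difference of -0.22 (limma, adjusted p = 0.448), and Chac1 a difference of 0.10 (limma, adjusted p = 0.82). Moxd1, which is not among the 37, had 2.49 to 2.82 with EE2 against 2.78 to 3.37 with oil. It lay below the lower quartile of all genes on EE2 arrays (3.06) and around it on oil arrays (3.16). As a description of levels, all 3 high Lcn2 arrays lay above all 5 EE2 arrays for 6 genes, Saa1, Saa2, Orm2, Tifa, Slc41a2 and Dnajc12. They lay below all EE2 arrays for 15 genes, among them S100a8, S100a9, Prtn3, Fcgr3 and Adamdec1, and overlapped for 16. The same counts were not made over all genes, so they cannot be read as particular to the 37. Of the lower genes, Ces1e fell most with EE2, by 3.06, with 7.09 to 7.62 against 10.21 to 10.57 (limma, adjusted p = 2.61e-12), while Csad rose by 0.67 (limma, adjusted p = 0.00381).

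**Figure D4:**
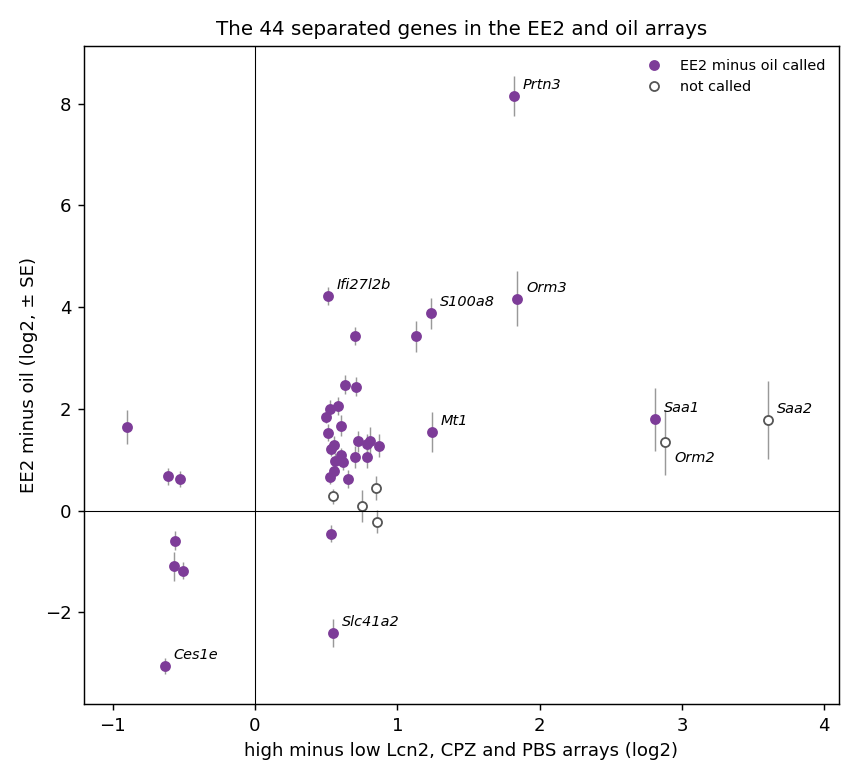
EE2 minus oil difference (y axis, log2, with SE from limma) against the high minus low Lcn2 difference (x axis, log2) for the 44 separated genes. Filled points were called in EE2 against oil at an adjusted p under 0.05 and open points were not. Saa2, Saa1 and Orm2 lie farthest right but at 1.34 to 1.80 on the y axis, while Prtn3 lies at 8.16.

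Lcn2 also varied within the EE2 group and within the oil group, which gives a second test on arrays that the rule did not use. A limma fit with treatment and with the Lcn2 level centred within each group gave each gene a slope, in log2 units per log2 unit of Lcn2. Of 16463 genes 1 had a positive slope at an adjusted p under 0.05 (0.00607%) and 0 a negative slope (0%), while 858 had an unadjusted p under 0.05 (5.21%). The gene was Saa3, with a slope of 0.93 ± 0.107 (SE, limma, adjusted p = 0.0419), a member of the serum amyloid list but not of the 37. It had 8.87, 9.60, 8.87, 8.13 and 8.73 on EE2 arrays 9, 13, 15, 17 and 18, against 7.20, 7.28, 8.07, 7.09 and 7.43 on oil arrays 2, 5, 6, 8 and 16. EE2 array 13 was the highest and array 17 the lowest for Lcn2 and for Saa3, and oil array 6 stood above the other oil arrays for both. The call did not survive quantile normalization (limma, adjusted p = 0.057) or 8 of the 10 fits that left out 1 array.

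None of the 37 or 7 genes was called in the slope fit. Of the 37, 31 had a positive slope, the median slope was 0.16 against -0.01 over all genes, and 8 had an unadjusted limma p under 0.05, all of them positive. Saa2 had a slope of 0.77 ± 0.137 (SE) and Saa1 of 0.62 ± 0.113 (SE), each with a limma adjusted p of 0.543, and ranked 4 and 5 of all genes by p. Orm2 had a slope of 0.66 and Steap4 of 0.36, each with a limma adjusted p of 0.917, whereas Orm3 had -0.03 (limma, adjusted p = 0.997). Taken within each group, the slope of Saa2 was 0.58 in EE2 arrays and 1.03 in oil arrays and that of Saa1 0.64 and 0.60, while Orm2 had 1.15 in EE2 arrays and -0.03 in oil arrays. The others under an unadjusted 0.05 were Cyb561, Serpina3n, Prg4 and Lrg1. Of the 7 lower genes 6 had a negative slope, and Ces1e (-0.23) was the 1 under an unadjusted 0.05. Haptoglobin, at 0.03, showed almost no slope.

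**Figure D5:**
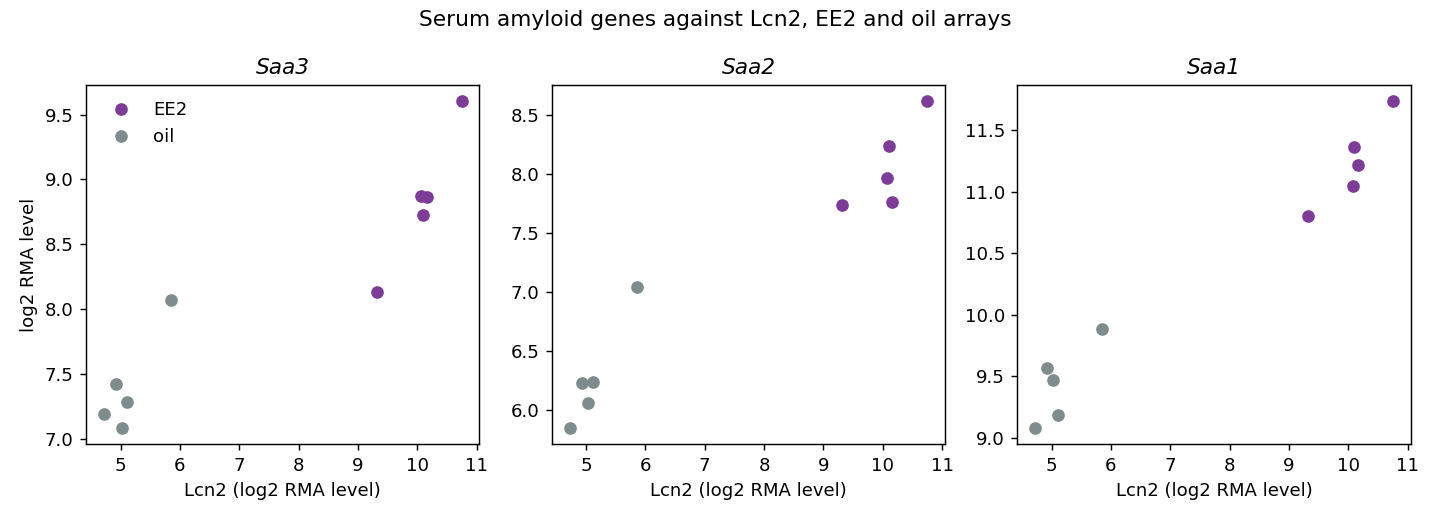
Log2 RMA level of Saa3, Saa2 and Saa1 (y axes) against that of Lcn2 (x axes, log2 RMA level) on the 5 EE2 and 5 oil arrays. Each point is an array. EE2 array 13, at an Lcn2 level of 10.75, is highest for all 3 genes, and within the oil arrays array 6, at 5.86, is highest for all 3.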

How the data were processed

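Liver RNA was measured on Affymetrix arrays, and per the submitters' processing notes RMA made the deposited log2 levels, with 1 value per gene for 17306 probe sets on 20 arrays. The sources used here give neither the probe definition nor the set of arrays normalized together. The platform annotation named 16464 probe sets by 1 symbol, and the 842 others were left out. No low values were filtered. Fits used limma 3.58.1 in R 4.3.3 (lmFit and eBayes, two-sided, Benjamini-Hochberg over all genes, threshold 0.05), tested on simulated data, with 16 residual degrees of freedom in the fit of group means and 7 in the slope fit. The members, the 32 gene lists (627 of 727 genes measured) and the genes named were chosen with earlier results of these data known.

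Beside all 44 separated genes, the text names genes by a rule. It takes the 14 largest positive and 10 largest negative differences among separated genes that average at least 6 on the higher side (5 negative ones qualified), a fixed set of acute phase, cytokine and cell type genes, up to 4 examples per list and the called slopes. Serpina3m was not matched to a probe set. Alternatives were quantile normalization, centring on array medians, a filter that drops the lowest 30% of genes, other priors, covariates and sets of arrays, and each array left out. The number of arrays limits the precision.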

Additional observations from a re-analysis of the deposited data

Results flagged for a closer look

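In each group of 5 arrays the highest and lowest array were compared with the rest by Dixon's ratio, the gap to the nearest array over the group's range, with a critical value of 0.71. Of 392 groups of arrays (98 genes) 20 exceeded it, 5.10%, and chance gives about 1 in 20. For PBS array 20 the ratios are a description, because its Lcn2 level chose it and Saa1, Saa2 and Zfp994 became members partly by lying apart on it. PBS array 20 stood above the other PBS arrays for Lcn2 (ratio 0.904), Saa2 (0.85), Il6 (0.824) and Saa1 (0.744), and below them for Zfp994 (0.715). PBS array 7 was low for Cebpd (0.902) and high for Mpo (0.935).

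CPZ array 11 was above the other CPZ arrays for Tlr2 (0.826), Clec4f (0.818), Cybb (0.804) and Vsig4 (0.762), of which the last 3 are macrophage markers. Among EE2 arrays, array 17 was low for Orm2 (0.737) and for Slc39a14 (0.962), array 18 for Il6st (0.944), array 9 for Ifi204 (0.769) and array 13 for Cyp4a14 (0.794). Among oil arrays, array 6 was high for Fga (0.738) and low for Il6ra (0.715) and Zfp994 (0.714), and array 16 was high for Osmr (0.841).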

How the results depend on the processing

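The count of 37 separated higher and 7 lower genes was 32 to 40 and 7 under the 6 alternatives of scaling, filter and covariate. Leaving out 1 array gave 32 to 96 higher and 6 to 23 lower. Without PBS array 20 there were 96 and 23, of which 37 and 5 were among the original genes, without CPZ array 1 there were 68 and 11 (34 and 6 shared), and without CPZ array 11 there were 34 and 14 (25 and 6 shared); fewer high arrays make separation easier. None of the 44 high minus low differences changed sign in any of these settings. With an array left out, the gene filter or no treatment covariate, separation fixed the sign in advance, so those settings could not show a change. Of the overlapping genes, Cyp2b10 turned to 0.52 without the treatment covariate. Without PBS array 20, Ngp turned to -0.12 and Cyp4a14 to 0.12. Mpo, Osmr, Alb and Fgg, whose differences were small, also changed sign in some settings.

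For EE2 minus oil, centring each array on its median moved the median of all genes by more than 0.1, to -0.23 from -0.07, and gave 2062 higher and 9784 lower genes, but the 29 rises and 2 falls among the 37 were unchanged in number. Under it Fgb turned to -0.0013 (limma, adjusted p = 0.98), the 1 reversal. The slope fit called 0 genes under quantile normalization and for the slope in EE2 arrays alone, and 0 to 1 when 1 array was left out. For CPZ minus PBS the lower count was 111 after centring and 91 without the low genes, and the counts were 37 higher and 27 lower with the CPZ and PBS arrays alone, and 39 and 25 with the Lcn2 class as a covariate. Leaving out 1 array gave 29 to 75 higher and 18 to 79 lower. The cause of these shifts was not tested. No paired analysis was possible because no sample number is used by more than 1 group.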
